A study of Mus musculus with 68 samples.

Results

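The response of 129 fibroblasts to tunicamycin (TM) was measured in 5 mRNA-seq libraries, 2 from control cells (control replicates 2 and 3) and 3 from TM-treated cells (TM replicates 1 to 3). They are 5 of the 40 founder libraries and of the 68 libraries of the series, and were taken by strain and treatment label, with all 13197 listed genes kept. The cells were primary mouse embryonic fibroblasts (MEFs) of 129S1Sv/ImJ (129). Treated cells were kept in 2 ug/ml TM for 4 h, and control cells in 0.1% DMSO, its solvent, for the same time. The other 7 founder strains were treated alike and gave 16 control and 19 TM libraries. These strains are A/J (A), C57BL/6J (B6), CAST/EiJ (CAST), NOD/ShiLtJ (NOD), NZO/H1LtJ (NZO), PWK/PhJ (PWK) and WSB/EiJ (WSB). MEFs of the F1 cross of B6 mothers with 129 fathers, treated alike, are described at the end only. The MEFs of a strain were a mix from several female embryos of 1 litter, so a difference of 129 from the rest cannot be told apart from a difference between MEF preparations. Replicates are libraries of that mix, and p-values measure the spread between them.

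TM blocks the first step of N-linked glycosylation, so that glycoproteins misfold in the endoplasmic reticulum (ER). The unfolded protein response answers through the sensors ATF6, IRE1 (which splices Xbp1) and PERK. ATF6 and XBP1 raise chaperones and degradation factors, while PERK favours translation of ATF4, which with CHOP drives amino acid supply and stress genes. ER stress can also activate NF-kB, a transcription factor of chemokine and cytokine genes. Levels below are the normalized signal per gene, which is proportional to reads and not divided by gene length, so they were compared within a gene and not between genes. In bulk RNA, fewer expressing cells and less RNA per cell cannot be told apart.

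Promoters of genes that the results turn on are shown to place the response on its regulatory sequence. Each runs from 250 bases before to 50 bases after a RefSeq start on GRCm38.p6, which is the C57BL/6J sequence, so alleles of 129 are not shown. The element was set beforehand for each gene shown, and only a window that held it was kept. That a shown window holds its element is therefore a choice and not a finding. Capitals mark matches on either strand to the ER stress response element (ERSE: CCAAT, any 9 bases, then CCACG), to its second form (ERSE-II: ATTGG, any base, then CCACG) or to the C/EBP-ATF response element (CARE, TGATGNAA).
Hspa5: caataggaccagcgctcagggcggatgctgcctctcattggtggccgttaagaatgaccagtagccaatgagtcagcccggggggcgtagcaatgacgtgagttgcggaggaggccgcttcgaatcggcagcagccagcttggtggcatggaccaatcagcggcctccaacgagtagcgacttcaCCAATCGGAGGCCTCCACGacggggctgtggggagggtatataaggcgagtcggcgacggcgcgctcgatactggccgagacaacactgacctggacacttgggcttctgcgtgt
Herpud1: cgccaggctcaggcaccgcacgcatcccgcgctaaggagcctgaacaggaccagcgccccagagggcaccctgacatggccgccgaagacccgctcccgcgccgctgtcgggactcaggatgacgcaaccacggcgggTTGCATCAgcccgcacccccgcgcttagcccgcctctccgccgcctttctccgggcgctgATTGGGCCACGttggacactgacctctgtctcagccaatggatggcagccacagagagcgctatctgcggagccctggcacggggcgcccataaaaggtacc
Chac1: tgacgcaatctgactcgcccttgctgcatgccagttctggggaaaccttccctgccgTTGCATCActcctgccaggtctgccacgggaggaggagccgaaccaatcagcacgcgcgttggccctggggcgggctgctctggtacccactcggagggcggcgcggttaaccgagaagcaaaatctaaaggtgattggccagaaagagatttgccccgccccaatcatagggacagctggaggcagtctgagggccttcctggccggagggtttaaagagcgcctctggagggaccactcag
Trib3: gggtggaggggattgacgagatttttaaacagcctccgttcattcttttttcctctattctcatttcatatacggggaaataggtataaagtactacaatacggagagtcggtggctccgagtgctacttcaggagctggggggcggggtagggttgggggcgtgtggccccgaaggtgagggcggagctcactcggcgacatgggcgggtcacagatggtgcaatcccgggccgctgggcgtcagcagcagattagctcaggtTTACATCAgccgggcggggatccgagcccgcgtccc
The Hspa5 window (chr2:34771840-34772139, + strand) held 1 ERSE, which starts 65 bases before the gene start. The Herpud1 window (chr8:94386179-94386478, + strand) held an ERSE-II 52 bases and a CARE 112 bases before the start. Chac1 (chr2:119350992-119351291, + strand) and Trib3 (chr2:152344011-152344310, - strand) held 1 CARE each. The Chac1 match starts 193 bases before the start and the Trib3 match 14 bases after it. The pair of matches in Herpud1 did not overlap. Of the 40 genes induced in 129, 35 had a window in the table, and 7 of these held an ERSE (Creld2, Dnajc3, Ero1lb, Hsp90b1, Hspa5, Syvn1 and Zfp57), against 0.137% of 27025 genes with a window. The CARE was in 6 of the 35 (Arl14ep, Atf3, Chac1, Fgf21, Herpud1 and Trib3), against 4.51% of all. In the amino acid lists 18 of 63 windows held a CARE and none held an ERSE. In the ER stress lists 11 of 120 held an ERSE and 5 held a CARE. A match describes letters and is not a test of binding.

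The libraries held between 7735494 and 18787378 reads on genes. The defining fibroblast markers were 11 of 11 listed, with a summed signal of 25803 to 26463 in controls and 18181 to 23318 with TM. Libraries of the other founders summed to 20716 to 55937. Fn1 was the highest of these markers, while Lum was at 0.63 and 0.74 in controls and Pdgfra at 11.4 and 12.2. Such sums are set by the highest genes and do not rank cell types. The 13 listed myeloid markers summed to 17.9 to 19.7 in controls and 12.0 to 16.2 with TM, with Lyz1 at 0 and 7 of the 13 never reaching 0.5 (Adgre1, Itgam, Tyrobp, C1qa, C1qb and C1qc besides Lyz1). Endothelial markers summed to at most 12.7, epithelial markers to at most 46.6, neural markers to at most 352.5 (with Nes the highest) and the 1 listed muscle marker, Des, to at most 118.7. No marker of these lists was called in 129. TM replicates 1 and 3 stood apart from each other. Their deviations from the TM mean ran opposite ways over 11239 genes (correlation -0.87, with SDs of 0.32 and 0.34 on the log2 scale), while TM replicate 2 lay between them (SD 0.17) and each control deviated by 0.13. Deviations from a group mean sum to 0, so part of this opposition and the equal value of both controls are built in.

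TM raised 40 genes and lowered 1 in 129, of 12702 tested, at a false discovery rate (FDR) of 1% and a change of at least 1.5 fold. That is 0.315% and 0.00787% of the genes tested. The 10 genes with the largest rises were Fgf21, Herpud1, Car6, Ddit3, Trib3, Gadd45a, Cass4, Chac1, Atf3 and Hey2. By list, 9 of the 40 were ER stress genes, 8 ATF4-CHOP genes, 2 chemokines (Cxcl1 and Ccl20) and 1 a snoRNA host RNA (Snhg12), and 20 were in no list. At an FDR of 5% there were 297 induced (2.34%) and 49 lowered (0.386%), and at an unadjusted p below 0.05 with the same fold 1027 and 778. All 3 TM libraries lay beyond both controls in the direction of a change of at least 1.5 fold in 8.76% of all listed genes upward and 8.27% downward. The number called rested on single libraries. It was 1 without control replicate 2 or without control replicate 3, 0 without TM replicate 2, 51 up and 5 down without TM replicate 1, and 249 up and 141 down without TM replicate 3. With the spread taken from all 40 founder libraries, 434 genes (3.29%) were induced and 250 (1.89%) lowered. The plot of fold change by level shows the called genes over the range of signal.

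**Figure D1:**
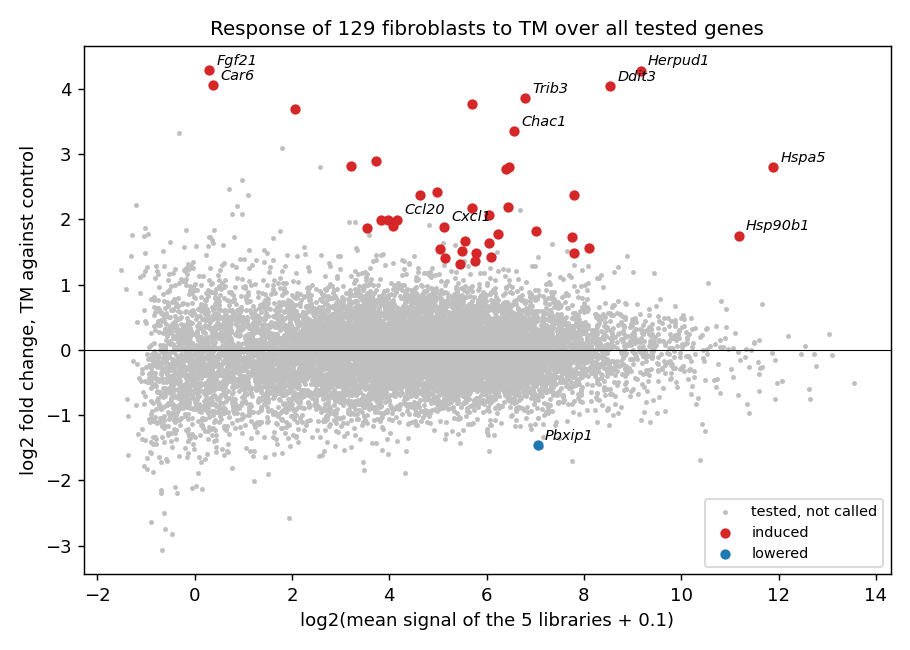
Log2 fold change (TM against control, vertical axis) against log2 of the mean signal plus 0.1 (horizontal axis) for the 12702 genes tested in 129. Red points are the 40 induced genes, the blue point is the 1 lowered gene, Pbxip1, and grey points were not called. Most called genes stand above the cloud, and Hspa5 and Hsp90b1 do so at high signal.

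Herpud1, which brings the ER degradation complex together, gave the smallest adjusted p of all genes. Its signal was 46.4 and 48.8 in the controls and 974, 996 and 816 in the TM libraries. The groups were far apart, with which gave 4.28 ± 0.15 (SE) on the log2 scale (adjusted p = 0.00017, limma). The other 7 strains ranged from 3.96 to 4.70, and 129 differed from their mean by -0.03 (adjusted p = 0.99). Hspa5 encodes BiP, the main chaperone of the ER lumen. Hspa5 stood at 832 and 824 in controls and at 6464, 5840 and 5106 with TM, which gave 2.80 ± 0.17 (adjusted p = 0.0012). In the other strains Hspa5 ranged from 2.52 to 3.06 on the same scale, so its response in 129 lay inside theirs.

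Of the 18 ER Hsp70 and Hsp90 chaperones and co-factors, 6 rose, 12 were not called and 9 passed at an FDR of 5%. Besides Hspa5 they were Sdf2l1 and Creld2, an ER stress co-factor and a disulfide-related protein, the BiP partners Dnajb9 and Dnajc3, and Hsp90b1, the ER Hsp90. Dnajb9 was the most even of these, at 18.2 and 19.2 in controls and 131, 126 and 130 with TM (2.78 ± 0.14, adjusted p = 0.00052). Hsp90b1 was at 987 and 927 in controls and 3694, 3039 and 2966 with TM (1.75 ± 0.17, adjusted p = 0.0069). Manf, a secreted ER stress factor, gave 1.52 ± 0.17 and passed at an FDR of 5% alone (adjusted p = 0.011). The list median was 0.78, against -0.01 for all listed genes in 129 and 0.69 to 1.27 for the list in the other strains. In the 3 TM libraries the list median was 1.07, 0.81 and 0.73, so it was positive in each. In the 40-library fit 10 of the 18 were induced.

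Among 15 protein disulfide isomerases and oxidases, Ero1lb, an oxidase that feeds disulfides to them, rose by 1.99 ± 0.18 on the log2 scale (adjusted p = 0.0061). The other 14 were not called, and 5 of the 15 passed at an FDR of 5%. Pdia4, at 297 and 284 in controls and 637, 676 and 681 with TM, had a log2 fold change of 1.19 ± 0.13 (adjusted p = 0.011). In the other strains Pdia4 ranged from 1.28 to 2.01, all above 129, and the difference from their mean was -0.45 (adjusted p = 0.069). Pdia6 gave 1.19 and Ero1l 0.72, with adjusted p of 0.040 and 0.067.

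Of 25 ER-associated degradation genes, Herpud1 and Syvn1 rose and 6 passed at an FDR of 5%. Syvn1, the Hrd1 ubiquitin ligase that acts on misfolded ER proteins, rose by 1.73 ± 0.18 (adjusted p = 0.0089). Its partner Sel1l was uneven, at 119 and 126 in controls and 208, 242 and 376 with TM (1.12 ± 0.25, adjusted p = 0.070). Edem1, which hands misfolded glycoproteins to degradation, gave 0.77 ± 0.14 (adjusted p = 0.040), below the 0.93 to 1.07 of the other strains. Derl3, of the derlin channel family, was at 1.15 in both controls and at 5.94, 11.8 and 9.13 with TM, or 2.81 ± 0.32 on the log2 scale (adjusted p = 0.011). The other strains gave 3.81 to 5.53 for Derl3, and the difference of -1.58 from their mean did not pass over all genes (adjusted p = 0.48). Both controls of 129 lay above all 16 other controls for Derl3, which reached 0.86 at most.

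None of the 10 sensors, proteases and Xbp1 was called, against 1 at an FDR of 5%, which was Xbp1 (1.11 ± 0.14, adjusted p = 0.015). Xbp1 was at 110 and 106 in controls and 231, 251 and 219 with TM, so the groups did not overlap. Atf6 gave 0.23, Eif2ak3, which encodes PERK, 0.53 and Ern1, which encodes IRE1, -0.16, with adjusted p of 0.59, 0.11 and 0.76. Ern1 was at 58.3 and 66.8 in controls and 44.4, 50.2 and 78.7 with TM, with the groups overlapping. Without TM replicate 1 its value turned to 0.010.

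None of the 31 genes of N-glycan synthesis and oligosaccharyl transfer was called in 129, with 1 at an FDR of 5%. Separated upward by at least 1.5 fold were 5 of the 31, against 8.76% of all listed genes. Dpagt1, whose product is the enzyme that TM inhibits, was at 43.6 and 42.1 in controls and 42.2, 50.4 and 45.8 with TM (0.10 ± 0.15, adjusted p = 0.73). Gfpt1, of hexosamine synthesis, gave 0.03, with a value of -0.28 without TM replicate 3. The 24 translocon and signal peptidase genes had 0 called, 3 at an FDR of 5% and a median of 0.42, above all other strains but WSB, which had 0.54. Sec61b, a translocon subunit, gave 0.28 (adjusted p = 0.51). The 25 ER to Golgi traffic genes had 0 called at either rate and a median of 0.13, and Sec24d, a coat subunit, gave -0.08. Over the 148 genes of the 7 ER stress lists the median was 0.29 in 129, between 0.17 and 0.39 in the other strains, and 74 of 148 lay below the mean of the other 7 (48.6% of all genes did). The 40-library fit called 7 of 15 disulfide isomerases and oxidases, 8 of 25 degradation genes and 1 of 10 sensors, proteases and Xbp1. It called 3 of 31 N-glycan genes, 4 of 24 translocon genes and 0 of 25 traffic genes.

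The ATF4-CHOP integrated stress response list had 8 of its 22 genes induced and 13 at an FDR of 5%. Ddit3, which encodes CHOP, was at 37.5 and 33.7 in controls and 750, 563 and 481 with TM (4.04 ± 0.21, adjusted p = 0.00052). Gadd45a, a growth arrest gene, gave 3.78 ± 0.24, Atf3, a transcription factor, 2.90 ± 0.20, Cebpg, a partner of ATF4, 1.52 ± 0.14 and Ppp1r15a, the phosphatase subunit that restores translation, 1.49 ± 0.15. Fgf21, a secreted stress hormone, had 0 reads in both controls and 65 in the TM libraries. Set against 3 reads over both controls, it was at least 17.4-fold higher with TM. Atf4 itself was at 245 and 216 in controls and 747, 626 and 522 with TM (1.44 ± 0.19, adjusted p = 0.017). The list median of 1.21 lay within the 0.82 to 1.29 of the other strains. The 40-library fit called 15 of the 22.

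Chac1, which degrades glutathione, was at 14.9 and 13.8 in controls and 131, 172 and 143 with TM (3.35 ± 0.17, adjusted p = 0.00052). Its fold change was above those of the other 7 strains, which ran from 1.79 to 3.25, but the difference of 0.74 did not pass over all genes (adjusted p = 0.46). From the 129 libraries alone, the amino acid supply genes were called in none of 3 lists at an FDR of 1%. At an FDR of 5% there were 5 of 22 genes of amino acid and one-carbon synthesis, 2 of 18 listed transporters and 3 of 20 cytosolic tRNA synthetases. In the 40-library fit at an FDR of 1% these counts were 6, 4 and 7. Asns, asparagine synthetase, was at 92.3 and 84.6 in controls and 217, 201 and 181 with TM (1.17 ± 0.15, adjusted p = 0.016). Its fold change in the other strains was 0.61 to 0.98, below 129 in each, with a difference of 0.36 (adjusted p = 0.99). Mthfd2, the mitochondrial folate enzyme, showed the same order, with 1.02 ± 0.13 (adjusted p = 0.019) against 0.61 to 0.97.

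Genes of serine synthesis and use were not called. Psat1 gave 0.54, Shmt2 0.46 and Phgdh 0.35, with adjusted p of 0.082, 0.12 and 0.42, and Aldh18a1 of proline synthesis gave 0.56. Phgdh was at 572 and 521 in controls and 894, 726 and 515 with TM, so TM replicate 3 lay below both controls. Of the tRNA synthetases, which charge tRNAs with amino acids, Cars, Tars and Lars passed at an FDR of 5%. Gars gave 0.73 ± 0.16, Wars 0.66 ± 0.17 and Aars 0.48 ± 0.15. The list median was 0.55, with 0.33 to 0.68 in the other strains, while the 17 mitochondrial tRNA synthetases had a median of 0.22 and 0 called at either rate.

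The amino acid transporters had a median of 0.17 in 129, -0.14 in WSB and 0.32 to 0.65 in the rest. Slc3a2, the heavy chain of several amino acid exchangers, gave 1.20 ± 0.16 (adjusted p = 0.019), against 0.85 to 1.51 elsewhere. Slc6a9, a glycine transporter, gave 0.91 ± 0.25 (adjusted p = 0.10). Slc7a11, the cystine transporter, was at 64.9 and 57.9 in controls and 69.8, 80.7 and 67.7 with TM (0.24 ± 0.15, adjusted p = 0.38). The other 7 strains gave 0.80 to 2.36 for Slc7a11, all above 129, and the difference of -1.42 from their mean had an unadjusted p of 0.0039 and an adjusted p of 0.75. Both controls of 129 lay above all 16 other controls, which ran from 6.69 to 55.9. Slc7a5 is not analysed here.

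**Figure D2:**
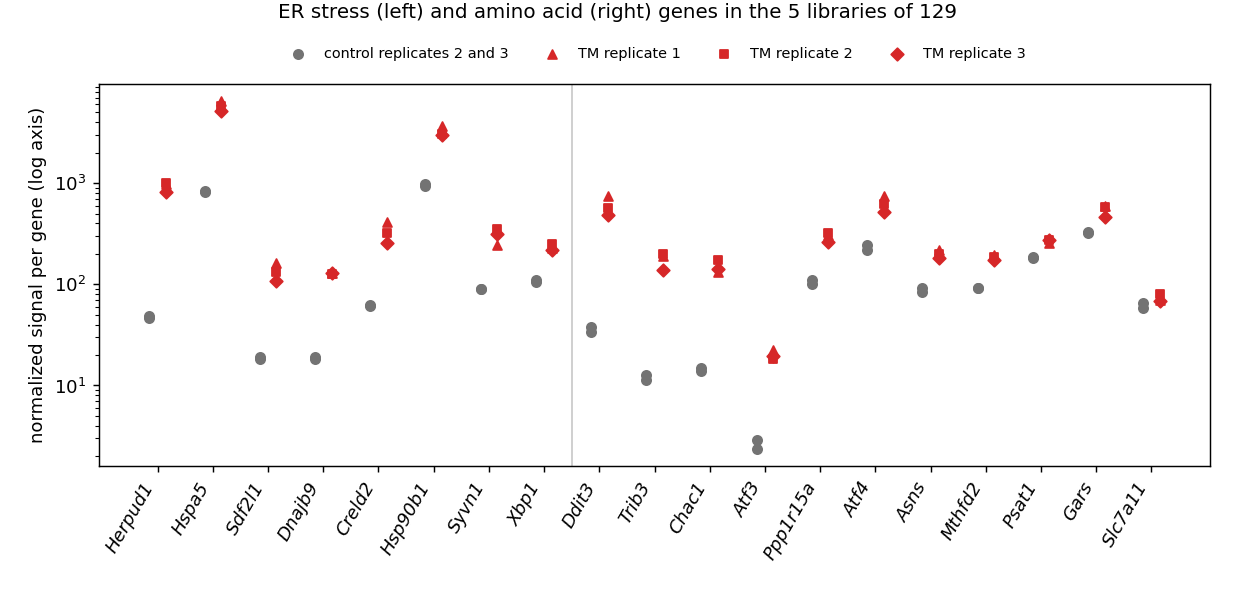
Normalized signal per gene (vertical log axis) in each of the 5 libraries of 129, with grey points for controls and red symbols for TM replicates 1 to 3. Left of the grey line are ER stress genes and right of it amino acid genes, and the TM libraries lie above both controls for each gene plotted, by 4.28 for Herpud1 and by 0.24 for Slc7a11 on the log2 scale.

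The 20 induced genes in no list included Hey2, a Notch target, Nfil3 and Snai2, both transcription factors, and Piga of glycolipid anchor synthesis. Cass4, a docking protein, was at 0.29 and 0.57 in controls and 6.36, 6.04 and 7.21 with TM (3.70 ± 0.32, adjusted p = 0.0058). Hey2 gave 2.82 ± 0.26, inside the 2.45 to 3.30 of the other strains. The 1 lowered gene was Pbxip1, at 214 and 216 in controls and 72.3, 82.4 and 80.0 with TM (-1.46 ± 0.14, adjusted p = 0.0069). It also had lower means with TM in the other 7 strains, from -1.68 to -0.71. No gene of the lists for decay by IRE1 and matrix was called. Scara3, a known target of decay by IRE1, had a log2 fold change of -1.84 (adjusted p = 0.021). The collagen and matrix list had 0 of 16 called and a median of -0.47, but its median was -0.89 in TM replicate 1, -0.42 in TM replicate 2 and -0.16 in TM replicate 3. The part of this difference between libraries in the lowered genes was not tested.

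Of 78 listed genes for chemokines, cytokines, the NF-kB pathway and effectors, 2 were induced in 129 and 13 passed at an FDR of 5%. Their median log2 fold change was 0.38 in 129 and 0.53 to 1.02 in the other strains, the lowest of 8. By TM library it was 0.45, 0.33 and 0.37, so each of the 3 lay below the medians of the other strains. The response was below the mean of the other 7 strains in 61 of the 78 genes, against 48.6% of all genes, and 31 of the 78 were smaller in 129 at an unadjusted p below 0.05, against 2.10% of all. 1 of the 78 was larger at that p, against 1.19% of all. The 40-library fit called more of these genes induced in 129 than the 129 libraries alone. It called 6 of 19 chemokines, 2 of 17 cytokines, 7 of 24 NF-kB genes and 2 of 18 effectors, against 3.29% of all.

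The difference itself, 129 minus the mean of the other 7 strains, passed an FDR of 1% for 8 genes. It was smaller in 129 for 6 (0.0455% of 13197) and larger for 2 (0.0152%). All 6 belong to the inflammatory lists, which were chosen with earlier results known. They were the chemokines Cxcl1, Cxcl2 and Ccl20, the cytokine Lif, the NF-kB inhibitor Tnfaip3 and the matrix protease Mmp9. The 2 were Trib3 and Car6. By list, 3 of 19 chemokines, 1 of 17 cytokines, 1 of 24 NF-kB genes and 1 of 18 effectors were smaller.

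The promoter windows of Cxcl1 (chr5:90890995-90891294, + strand), Cxcl2 (chr5:90903649-90903948, + strand) and Ccl20 (chr1:83116516-83116815, + strand) are given in the same way, with the NF-kB consensus in capitals.
Cxcl1: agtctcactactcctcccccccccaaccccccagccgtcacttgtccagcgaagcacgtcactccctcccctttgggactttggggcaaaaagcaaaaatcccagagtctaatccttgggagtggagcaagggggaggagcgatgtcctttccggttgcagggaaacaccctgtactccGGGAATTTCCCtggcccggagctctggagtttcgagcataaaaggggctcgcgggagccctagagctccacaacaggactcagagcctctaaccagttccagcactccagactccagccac
Cxcl2: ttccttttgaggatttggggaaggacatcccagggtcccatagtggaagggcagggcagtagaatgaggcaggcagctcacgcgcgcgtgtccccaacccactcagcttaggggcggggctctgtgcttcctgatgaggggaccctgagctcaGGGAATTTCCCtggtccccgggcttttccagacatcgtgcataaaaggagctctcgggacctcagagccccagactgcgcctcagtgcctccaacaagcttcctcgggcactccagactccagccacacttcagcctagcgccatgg
Ccl20: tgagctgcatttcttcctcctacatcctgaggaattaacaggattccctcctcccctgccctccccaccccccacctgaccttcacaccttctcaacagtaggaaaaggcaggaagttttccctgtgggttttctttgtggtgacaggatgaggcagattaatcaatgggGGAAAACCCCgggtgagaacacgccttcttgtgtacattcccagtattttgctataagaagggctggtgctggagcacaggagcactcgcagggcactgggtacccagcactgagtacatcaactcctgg
In Cxcl1 and Cxcl2 the consensus matched on both strands, at overlapping places. Of the 6 genes smaller in 129, 5 had a window, and 4 of these held an NF-kB match (Ccl20, Cxcl1, Cxcl2 and Tnfaip3), as did 22 of 59 in the inflammatory lists and 5.14% of all genes. None of the 59 held an ERSE.

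Cxcl1 attracts neutrophils. It was at 12.8 and 13.5 in the controls of 129 and at 49.4, 44.6 and 53.2 with TM, so it rose, by 1.89 ± 0.16 on the log2 scale (adjusted p = 0.0054). In the other 7 strains it gave 3.77 to 5.21, and all 19 TM libraries of these strains had a larger response than each of the 3 of 129. That count is a description and no test, because Cxcl1 was picked by this same difference. The 3 responses of 129 also share their control mean. The same holds for the count of responses given for Trib3 below. The difference was -2.53 (adjusted p = 6.3e-09). Before treatment both 129 controls lay above all 16 others, whose median was 3.07 and highest 4.35. With TM, 129 lay within the other strains, with 8 of 19 libraries below and 10 above all 3 of 129.

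Ccl20, which attracts lymphocytes and dendritic cells, showed the same order. It was at 7.003 and 5.65 in controls and 28.2, 22.3 and 26.1 with TM (2.00 ± 0.19, adjusted p = 0.0069). The other strains gave 4.44 to 5.96, a difference of -3.33 (adjusted p = 9.4e-06), or -1.72 with a pseudocount of 1 (adjusted p = 2.1e-05). Their controls had a median of 0.24 and a highest of 2.87, all below 129, and with TM 15 of the 19 lay below 129. Cxcl2, another neutrophil attractant, was lower in 129 at the treated level. It was at 0.75 and 0.33 in controls and at 3.34, 2.52 and 3.27 with TM (2.37 ± 0.38, adjusted p = 0.033), while all 19 other TM libraries lay above, from 4.69 to 82.3. Its controls overlapped, and its difference was -3.42 (adjusted p = 0.00036), or -2.93 without control replicate 2 (adjusted p = 0.077).

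Lif, a cytokine of the interleukin 6 family, was at 120 and 117 in controls and 213, 294 and 290 with TM (1.15 ± 0.18, adjusted p = 0.032). The other strains gave 1.62 to 3.10, a difference of -1.30 (adjusted p = 3.7e-05). Of the 16 other controls 15 lay below 129 and 1 above. Of the 19 other TM libraries 3 lay below each of 129 and 10 above. Tnfaip3, which encodes the NF-kB inhibitor A20, was at 72.0 and 81.4 in controls and 119, 149 and 163 with TM (0.90 ± 0.18, adjusted p = 0.051). Its difference was -1.22 (adjusted p = 0.00020), and -1.13 without control replicate 3 (adjusted p = 0.020). All 16 other controls lay below those of 129, at a median of 35.6. With TM 5 of the 19 others lay below each of 129 and 11 above. Mmp9 was at 34.0 and 33.3 in controls and 25.6, 34.3 and 32.2 with TM, so the groups overlapped (-0.14 ± 0.18, adjusted p = 0.67), while the other strains gave 0.76 to 1.54. The difference was -1.31 (adjusted p = 0.00036), with -1.29 and -1.32 when control replicate 2 or 3 was left out (adjusted p = 0.018 and 0.015). The controls of 129 lay above all 16 others, the highest at 14.3. With TM the Mmp9 level of 129 was still high, with 17 of the 19 other libraries below each of 129 and 1 above.

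Trib3, a pseudokinase that binds ATF4, was at 12.6 and 11.3 in controls and 190, 201 and 138 with TM (3.85 ± 0.20, adjusted p = 0.00052). The other strains gave 1.94 to 3.68, with 17 of 19 TM libraries below each of 129, and the difference was 1.27 (adjusted p = 0.00036), or 1.19 without control replicate 3 (adjusted p = 0.036). Both controls lay below all 16 others, with a median of 35.9, while the treated levels overlapped. Car6 is a carbonic anhydrase with a known CHOP-dependent stress form. It had 1 read in the controls of 129 and 74 with TM, a ratio of 59.6 with a 95% interval of 10.4 to 2384 for counting error, and a signal of 2.19, 1.76 and 2.02 with TM. All 16 other controls and all 19 other TM libraries lay above 129, from 0.34 and 2.46 upward. Its difference of 2.11 (adjusted p = 0.0054) was 0.20 with a pseudocount of 1 and had an adjusted p of 0.018 and 0.46 without control replicate 2 or 3, and of 0.038, 0.013 and 0.028 without TM replicate 1, 2 or 3.

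Besides Chac1, the next genes by p among larger responses were Sstr2, a somatostatin receptor, and Rhbdl3, of the rhomboid protease family, and neither passed. Sstr2 had 0 reads in the controls of 129 and 14 with TM, with a difference of 2.61 (adjusted p = 0.13). Rhbdl3 was at 0.34 and 0.41 in controls and 0.52, 0.63 and 0.67 with TM, with a difference of 1.16 (adjusted p = 0.46). For both genes the 129 controls lay below all 16 others, and the treated levels overlapped.

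Over all genes the controls of 129 lay above all 16 others in 3.56% and below them in 2.11%, and its TM libraries above all 19 others in 1.18% and below in 1.04%. In the inflammatory lists this was 15 and 3 of 78 for controls and 8 and 3 for TM. The 15 included Ccl2, Ccl7, Cxcl12, Cxcl16, Il6, Il1a, Tlr2 and Saa3 besides those above. In the amino acid lists 10 of 82 were below all other controls and 1 above, and in the ER stress lists 0 and 3 of 148. These levels were chosen for description after the differences had been seen, and carry no test.

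**Figure D3:**
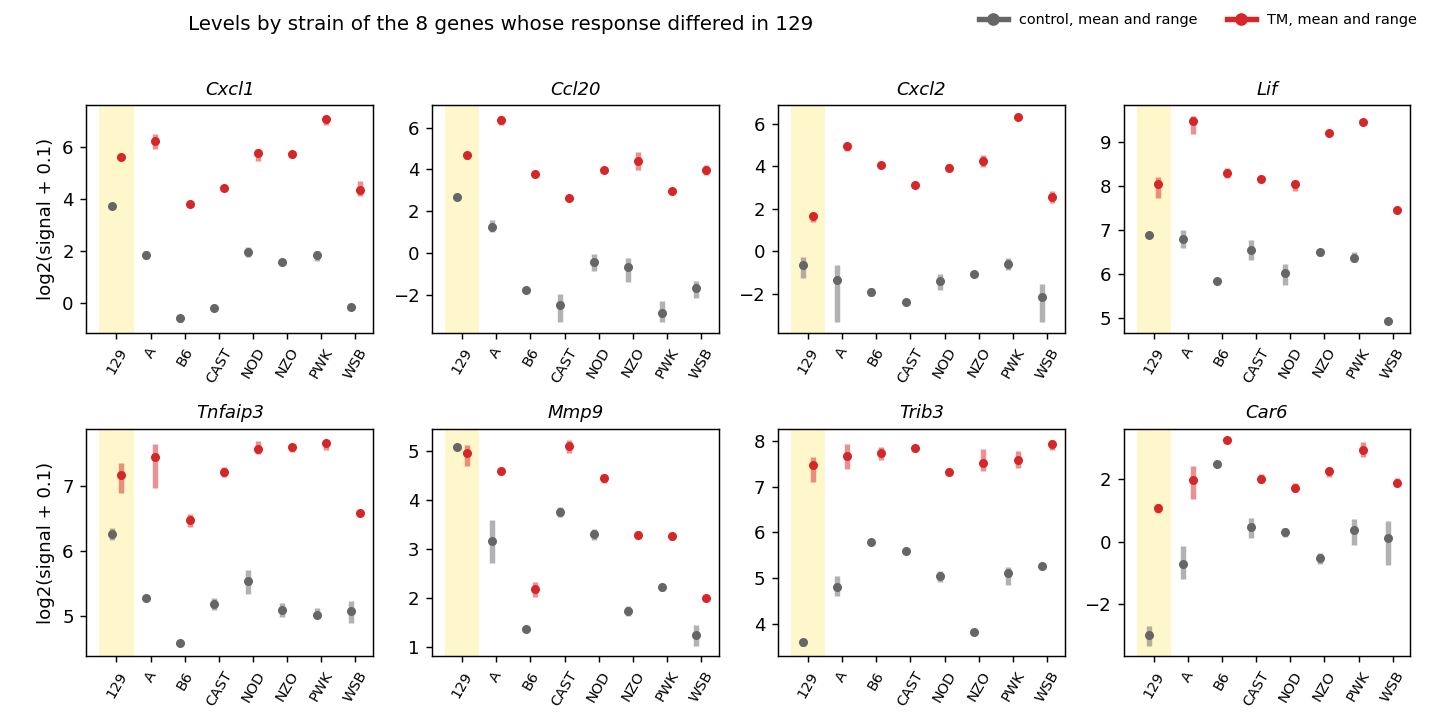
Log2 of the signal plus 0.1 (vertical axis) in the 8 founder strains for the 8 genes whose response differed in 129, which is shaded. Points are group means and bars run from the lowest to the highest library, grey for control and red for TM. For Cxcl1, Ccl20, Tnfaip3 and Mmp9 the 129 controls are the highest, for Trib3 and Car6 the lowest, and for Cxcl2 the 129 TM libraries are the lowest.

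Other inflammatory genes did not pass the test of the difference. Ccl2, a monocyte attractant, gave 1.29 ± 0.15 in 129 (adjusted p = 0.011) and 1.89 to 3.06 elsewhere, and Cxcl5 1.63 ± 0.18 (adjusted p = 0.011) against 2.09 to 3.36. Icam1, an adhesion molecule, was at 3.39 and 1.88 in controls and 2.61, 1.01 and 2.39 with TM (-0.43 ± 0.47), below all 19 other TM libraries, with a difference of -1.48 (adjusted p = 0.074). Csf2, a growth factor of myeloid cells, was uneven, at 1.03 and 0.08 in controls and 2.40, 3.77 and 2.08 with TM, and gave 2.60 ± 0.73 (adjusted p = 0.11) against 3.53 to 5.34. Lcn2, an iron-binding protein of inflammation, gave -0.60 in 129 and -0.89 to 3.29 elsewhere. Il11, an interleukin 6 family cytokine, gave -0.46 and lay below its values in the other strains, which were -0.40 to 0.04.

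Of the 24 NF-kB genes none was called in 129, 3 passed at an FDR of 5% and 7 were induced in the 40-library fit. The response lay below the mean of the other strains in 21 of the 24, against 48.6% of all genes. Nfkbia, which encodes the inhibitor that NF-kB itself induces, was at 36.0 and 44.4 in controls and 83.5, 82.1 and 73.8 with TM (0.99 ± 0.16, adjusted p = 0.033), against 1.04 to 1.98 elsewhere. The subunits Nfkb1, Nfkb2 and Relb gave 0.36, 0.21 and 1.03, each the lowest of the 8 strains, with differences of -0.48, -0.56 and -0.46 (adjusted p = 0.66, 0.40 and 0.99). Nfkbiz gave 0.32, within the other strains. The list median was 0.34 in 129 and 0.58 to 0.80 elsewhere. Il6 and Ptgs2 had fold changes within those of the other strains. Il6, a cytokine, was at 16.9 and 17.2 in controls and 33.0, 29.3 and 30.3 with TM (0.85 ± 0.15, adjusted p = 0.040), where the others gave 0.46 to 1.48, and Ptgs2, of prostaglandin synthesis, gave 0.70 with 0.53 to 1.56 elsewhere. Casp4, an inflammatory caspase, had 1 read in controls and 43 with TM, a ratio of 34.6 (95% interval 5.89 to 1399 for counting error).

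**Figure D4:**
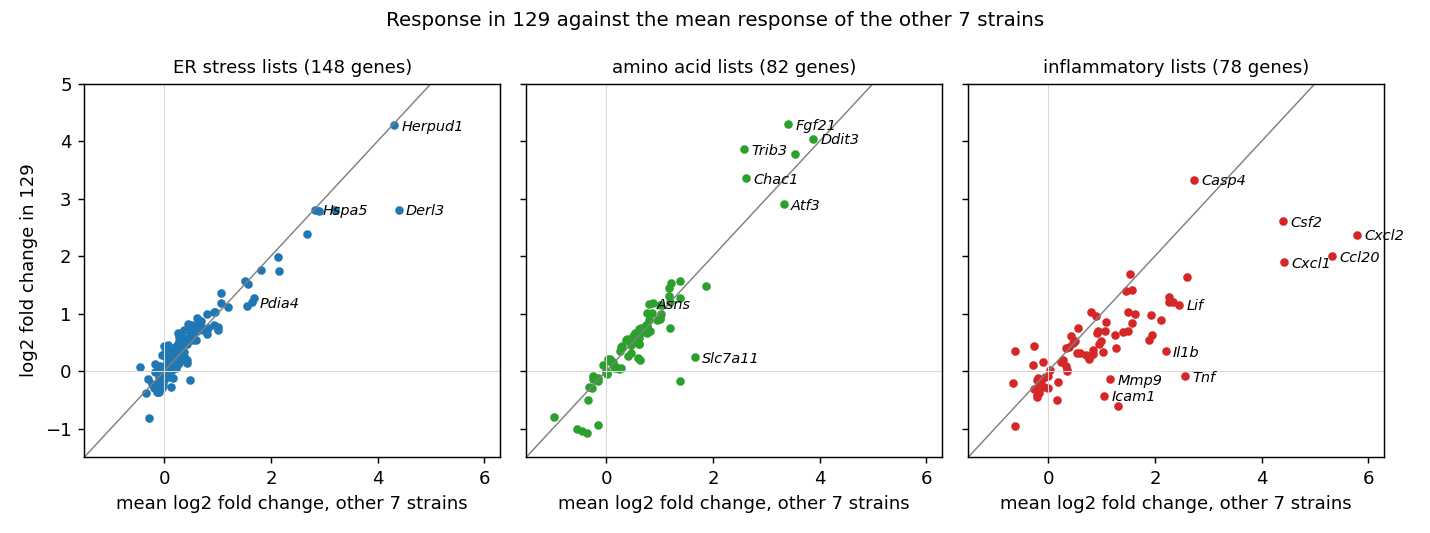
Log2 fold change in 129 (vertical axis) against the mean log2 fold change of the other 7 strains (horizontal axis), with 1 point per gene and the line of equal response, for 148 ER stress, 82 amino acid and 78 inflammatory genes. Below the line lie 74 of 148, 36 of 82 and 61 of 78 points, with Derl3, Slc7a11 and Cxcl2 far below it and Trib3 above it.

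By list median, low ranks of 129 among the 8 strains were not limited to inflammatory genes. Counted from the lowest, 129 was 2nd for UPR sensors (0.13). There 9 of the 10 genes lay below the mean of the other strains, against 48.6% of all genes. The strain 129 was also 2nd for N-glycan synthesis (0.10) and for amino acid transporters (0.17). It was 3rd for ER chaperones, 4th for degradation, amino acid synthesis and cytosolic tRNA synthetases, 5th for ER to Golgi traffic and the ATF4-CHOP list, 7th for disulfide isomerases and the translocon and 8th for mitochondrial tRNA synthetases. It was 2nd for chemokines (0.54, with 0.22 in CAST and 0.63 to 1.89 in the rest), 3rd for cytokines, and the lowest for the NF-kB genes and for effectors (0.15, with 0.51 to 0.95 elsewhere). The order of neighbouring strains was not tested. Of the comparison lists, the 18 AP-1 and immediate early genes had the lowest median in 129 too, at 0.19 against 0.29 to 0.99, and interferon-stimulated genes gave 0.15 within -0.11 to 0.31.

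**Figure D5:**
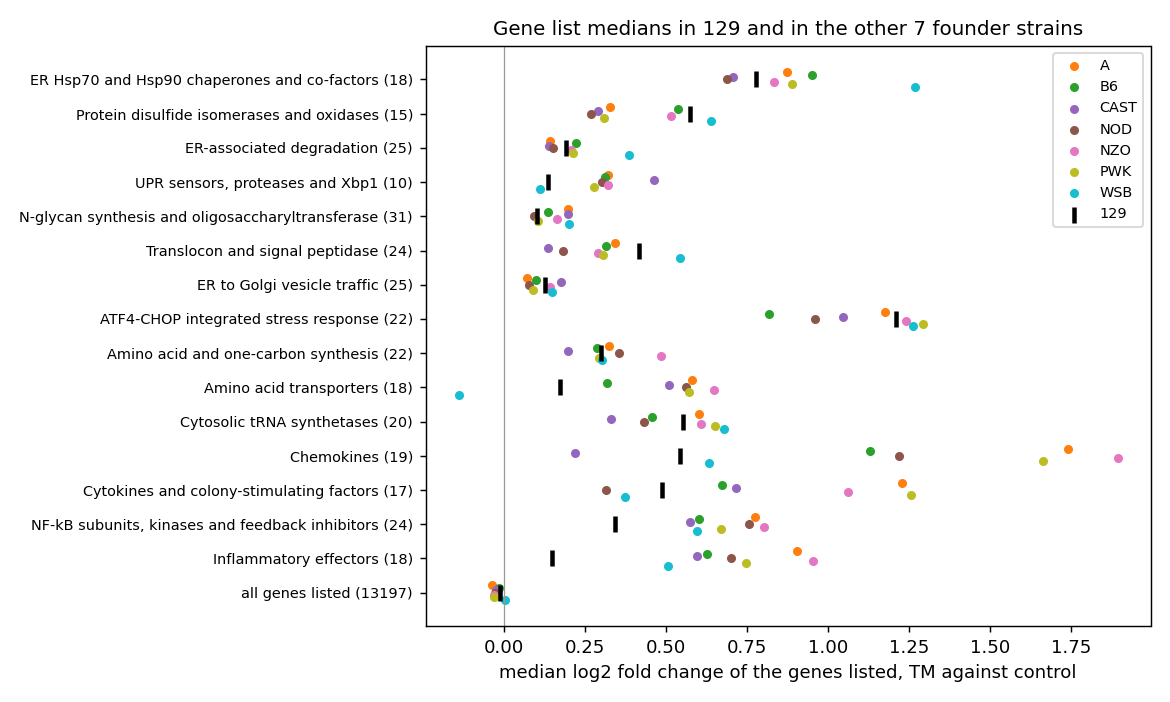
Median log2 fold change of the genes listed (horizontal axis) for each gene list, with the number of genes in parentheses, as coloured points for the 7 other founder strains and a black bar for 129. The 129 bar lies among the points for the ER stress and amino acid lists and to their left for the NF-kB genes (0.34) and effectors (0.15).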

How the data were processed

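RNA of 129 MEFs was sequenced as single-end mRNA-seq libraries (2 control and 3 TM libraries). Per the paper's methods, the authors aligned reads to a genome made for each strain (TopHat 1.4.1 per the submitters' processing notes, GRCm38), scaled counts by TMM (edgeR) and dropped outlying libraries before a second normalization, which can narrow the spread between replicates. The deposited signal per gene is called FPKM by the authors, and the design assumed FPKM, but in each library a single step, shared by all genes, divides the values evenly, so they are not divided by gene length. Whole reads were recovered for 100% of values in the 5 libraries of 129.

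TM was compared with control on log2(signal + 0.1) with limma 3.58.1 (eBayes with trend, R 4.3.3) for genes with a signal of at least 0.5 in at least 2 libraries. A gene was called at 1.5 fold or more with p under 0.01 after Benjamini-Hochberg adjustment. The contrast of 129 with the mean of the other 7 strains used all 40 founder libraries, adjusted over 13197 genes. Fold changes on this scale understate changes of low genes. Alternatives were no filter, a mean signal of at least 2, a pseudocount of 1, median-of-ratios scaling, a replicate block, no variance trend, library weights, an FDR of 5%, the 40-library fit, edgeR 4.0.16 quasi-likelihood tests on recovered reads, and leaving out each library or strain. Scripts were tested on simulated data.

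Gene lists, named genes and tests were chosen with earlier results of these data known. Named genes are the key genes of the lists, the 10 induced genes with the largest change, lowered genes, and the 5 with the smallest p in each direction of the contrast. Others were chosen after their values were seen. Genes were named from GENCODE M21 (13023 of 13197), and promoters are from RefSeq (GRCm38.p6). Intervals cover counting error only, and without strand reads of overlapping genes cannot be told apart. The F1 table of 129 and B6 was normalized separately, and other F1 tables were not used.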

Additional observations from a re-analysis of the deposited data

Results flagged for a closer look

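For 8 genes the response of 129 to TM differed from the mean response of the other 7 strains in a test of the difference itself (limma, adjusted over 13197 genes). On the log2 scale it was smaller for Cxcl1 (-2.53), Ccl20 (-3.33), Lif (-1.30), Tnfaip3 (-1.22), Mmp9 (-1.31) and Cxcl2 (-3.42). It was larger for Trib3 (1.27) and Car6 (2.11). The size depends on the pseudocount for low genes. With a pseudocount of 1 the difference was -1.99 for Cxcl1, -1.72 for Ccl20, -2.51 for Cxcl2 and 0.20 for Car6. Of the 19 alternatives run for each, Cxcl1 and Ccl20 passed in 19, Lif in 18, Cxcl2, Tnfaip3 and Trib3 in 17, Mmp9 in 16 and Car6 in 8. The control level of 129 is a term of each difference, so that control levels move with differences is partly built in. The control levels given beside each gene did so except for Cxcl2, whose controls overlapped and whose TM level was the lowest. The part of the control levels was not tested. No group had the 4 libraries needed to look for a library far from the others.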

How the results depend on the processing

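The 40 induced and 1 lowered genes became 807 and 348 with a replicate block, 434 and 250 in 1 fit over the 40 libraries, 1161 and 1310 with library weights, 297 and 49 at an FDR of 5%, and 11 and 0 without the variance trend. The weights did not converge and gave TM replicate 2 nearly all the weight (56.5, against 0.14 for each other TM library). Leaving out 1 library gave 0 to 249 induced and 0 to 141 lowered. With TM replicate 3 left out all 41 calls were kept, and with TM replicate 1 left out 38. edgeR called 29 and 1, a pseudocount of 1 gave 35 and 1, a mean of at least 2 gave 32 and 1, and median-of-ratios scaling 38 and 1. With no filter the counts were 40 and 1, and 2 and 6 for the differences below. The 2 larger and 6 smaller differences became 1 and 8 with a pseudocount of 1, 0 and 2 with the block, 1 and 7 with edgeR and 2 and 11 at an FDR of 5%. Leaving out a 129 library gave 0 to 1 larger and 4 to 6 smaller, and leaving out a strain 1 to 2 larger and 6 to 10 smaller. With no trend, with a mean of at least 2 and with median-of-ratios scaling the smaller were 7 and the larger 2. The 2 smaller differences kept with the block were those of Cxcl1 and Ccl20. Deviations of same-numbered libraries of 129 had correlations of 0.13 and 0.49 in 2 pairs. The deviations of the 2 controls mirror each other, so these pairs are not separate evidence of pairing. In the other 7 strains 4 of 14 such pairs had a correlation over 0.1, with a range of -0.64 to 0.32. No label gives a shared batch, so whether same-numbered libraries are paired is not known. The block leaves 1 residual degree of freedom in the 129 fit. Uncalled values turned sign for Ern1 (0.010) and Sec24d (0.095) with the block, and for Mmp9 (0.026) and Gfpt1 (-0.22) with library weights. Leaving out 1 library gave -0.40 to 0.010 for Ern1, -0.24 to 0.095 for Sec24d and -0.28 to 0.22 for Gfpt1. The causes were not tested. Genes near 1 read in controls, such as Car6 and Fgf21, are limited by depth.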

Other observations

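The F1 cells of a cross of B6 with 129 (3 control and 3 TM libraries) were normalized separately from the founders. Changes and not levels are therefore set beside the parents, and the difference from the parents was not tested. Cxcl1 changed by 3.93 ± 0.16 (SE, log2, adjusted p = 3.6e-07, limma) in the F1, against 1.89 in 129 and 4.40 in B6. Ccl20 gave 3.98 ± 0.20 against 2.00 and 5.54, Cxcl2 6.26 ± 0.27 against 2.37 and 5.96, and Lif 2.33 ± 0.09 against 1.15 and 2.47. Tnfaip3 gave 1.90 ± 0.13 against 0.90 and 1.89. By point value Cxcl1, Ccl20 and Lif lay between the parents, while Tnfaip3 equalled B6 within its SE. Cxcl2 was at 0, 0 and 0.047 in the F1 controls, where 0.047 is the value of 1 read. Its change in the F1 is therefore set by the pseudocount, and its point value above both parents gives no order. Trib3, with 2.73 ± 0.11 against 3.85 and 1.94, and Car6, with 1.88 ± 0.23 against 4.05 and 0.76, lay between the parents. Mmp9 gave 0.49 ± 0.18 (adjusted p = 0.075), between -0.14 in 129 and 0.81 in B6.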
